A study of Homo sapiens with 18 samples.

Results

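The sprouty, SPRED, DUSP and ETV transcripts that read out activity of the ERK pathway were followed in LNCaP cells. The set was chosen by gene name and holds 10 of the 58037 genes of the count table: SPRY1, SPRY2, SPRY4, SPRED1, SPRED2, DUSP4, DUSP5, DUSP6, ETV1 and ETV5. Of these, 9 passed the filter on low counts and were tested among 15185 genes, and DUSP6 did not. LNCaP is an established androgen-responsive prostate cancer cell line. All cells grew in serum stripped of androgen with charcoal and were transfected by lipofection with 1 of 3 pools of siRNA: a pool against E2F1, a pool against E2F2, or a non-targeting control pool. Each pool was followed by treatment for 48 h with 0.1 nM R1881, a synthetic androgen, or with ethanol as vehicle. The 6 groups of 3 biological replicates therefore were E2F1 siRNA with R1881, E2F2 siRNA with R1881, control siRNA with R1881, E2F1 siRNA with vehicle, E2F2 siRNA with vehicle and control siRNA with vehicle. All 6 share 1 cell line, and each siRNA was a pool, so the effect of a single siRNA sequence cannot be told apart. The interval between transfection and treatment is given in the labels as 42 h in the design text and as 48 h in the treatment protocol.

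Growth factors bind receptor tyrosine kinases, which switch on RAS and through it the kinases RAF, MEK and ERK. Active ERK induces its own inhibitors: sprouty and SPRED proteins act on the steps between receptor and RAF, and the DUSP phosphatases take the activating phosphates off ERK. ETV1 and ETV5 belong to the PEA3 group of ETS transcription factors, whose genes are held down by the repressor CIC until ERK is active. In prostate cancer ETV1 is a known oncogene, and LNCaP cells carry a known rearrangement of the ETV1 locus. E2F1 and E2F2 are transcription factors that drive entry into S phase. The amounts of these transcripts were measured here, not the activity of ERK or the amounts of the proteins.

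Libraries held 10930204 to 14819879 counts in genes. The silencing check followed the labels. E2F1 averaged 9.69 ± 0.876 CPM (counts scaled to library size) with E2F1 siRNA and 74.4 ± 6.32 CPM with control siRNA under R1881, and 6.83 ± 1.69 and 37.3 ± 5.00 CPM in the same order under vehicle (SD, n = 3 each). With E2F2 siRNA the E2F2 transcript fell by 4.05 ± 0.54 (SE) on the log2 scale under R1881 and by 4.14 ± 0.63 under vehicle. The E2F2 pool also lowered E2F1, with log2 fold changes of -1.62 ± 0.16 under R1881 and -1.57 ± 0.16 under vehicle, so effects of less E2F2 and of less E2F1 cannot be told apart in that pool. Under R1881, E2F2 averaged 1.45 ± 0.274 CPM with E2F1 siRNA and 3.43 ± 1.1 CPM with control siRNA (SD, n = 3 each), without overlap, a log2 fold change of -1.22 ± 0.38 that was not called (edgeR adjusted p 0.0586); under vehicle it was -0.29 ± 0.38. All 12 luminal prostate markers were detected, and their summed level was 8512 to 11295 CPM in R1881 libraries and 5753 to 6371 CPM in vehicle libraries. Single markers went both ways. R1881 against vehicle called 6 higher and 2 lower with E2F1 siRNA, 5 and 3 with E2F2 siRNA and 5 and 3 with control siRNA. Of all tested genes, 19.8%, 22.8% and 27% were called in that order. Of 14 markers of stroma, immune, endothelial and basal cells, 5 passed the filter on low counts, and COL1A2, DCN, KRT5 and TP63 had 0 counts in every group but E2F2 siRNA with vehicle, where each had 1 or 2. The summed level of these 14 genes was 22.9 to 27.3 CPM with E2F1 siRNA, 45.8 to 55.2 CPM with E2F2 siRNA and 34.9 to 36.9 CPM with control siRNA under R1881. Under vehicle it was 25.2 to 29.3 CPM with E2F1 siRNA, 78.7 to 90.7 CPM with E2F2 siRNA and 35.4 to 58.0 CPM with control siRNA. VWF and COL1A1 held most of this sum, and its part in the results with E2F2 siRNA was not tested. Replicate 3 of each group stood apart from replicates 1 and 2: the chi-square per degree of freedom between replicates 1 and 2 of a group was 1.79 to 4.42, and that between replicate 3 and either of them was 7.98 to 92.5. Values from replicates 1 and 2 alone are therefore given where they change a call. That fit leaves out the replicate that stood apart, so its spread and its p-values may be too small throughout. In bulk libraries such as these, fewer cells of a type and less RNA per cell cannot be told apart.

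Levels differed widely among the 10 genes when counts were divided by exon length. The libraries were made by exon capture and the capture of each gene was not measured, so the order given here is approximate. ETV1 was the highest at a median of 11.1 CPM per kb of exon over the 18 libraries (range 5.92 to 16.6), followed by SPRED2 at 5.02 (4.29 to 6.64). SPRY1 had a median of 2.49 CPM per kb (1.67 to 3.66), DUSP4 of 1.74 (0.865 to 3.64) and SPRED1 of 1.18 (0.541 to 2.01). The ranges of all neighbours in the order of the 10 genes overlapped, except those of SPRED2 and SPRY1. DUSP5 at 0.748 (0.251 to 1.8), SPRY2 at 0.606 (0.378 to 0.745) and SPRY4 at 0.481 (0.0527 to 1.91) formed the lower middle of the order. DUSP6 and ETV5 were close to the limit of detection at 0.0816 (0 to 0.183) and 0.0397 (0 to 0.282) CPM per kb, with 82 and 94 counts in all 18 libraries together. SPRY4 had the widest relative range of the 8 genes that were above these 2.

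**Figure D1:**
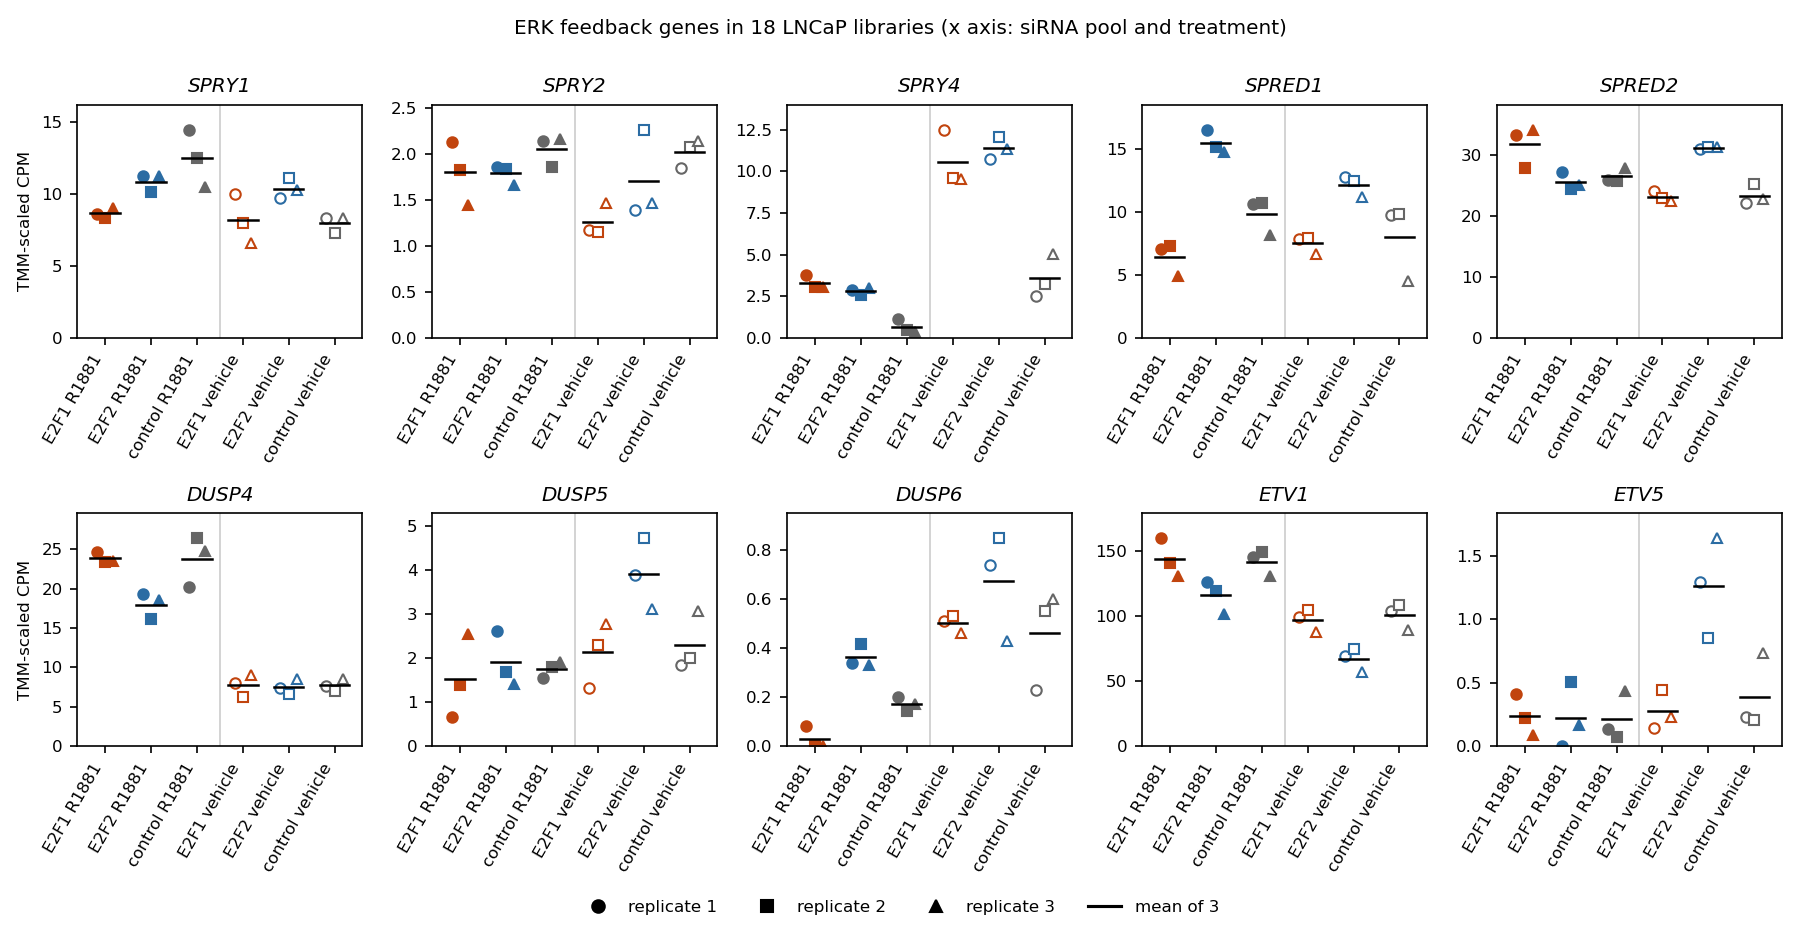
Levels of the 10 ERK feedback genes in TMM-scaled CPM (y axis) in each library of the 6 groups (x axis). Filled points are R1881 libraries, open points vehicle libraries, the circle, square and triangle are replicates 1, 2 and 3, and the black bar is the group mean; SPRY4 is low in all R1881 groups and lowest with control siRNA, and DUSP4 and ETV1 are high in all R1881 groups.

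Androgen moved these genes in opposite directions within the set. A gene was called at a Benjamini-Hochberg adjusted p under 0.05 in edgeR's quasi-likelihood test. R1881 against vehicle called 4 of the 9 tested genes with E2F1 siRNA (3 higher, 1 lower), where 19.8% of all tested genes were called, 10.1% higher and 9.75% lower. With E2F2 siRNA it called 5 of 9 (2 higher, 3 lower) against 22.8% of all genes, 11.8% higher and 11% lower. With control siRNA it called 4 of 9 (3 higher, 1 lower) against 27% of all genes, 13.8% higher and 13.2% lower. DUSP4 and ETV1 rose and SPRY4 fell in all 3 pools. The median log2 fold change of the 9 genes was 0.07 with E2F1 siRNA, 0.07 with E2F2 siRNA and 0.18 with control siRNA, beside -0.01, -0.01 and 0.00 over all tested genes.

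**Figure D2:**
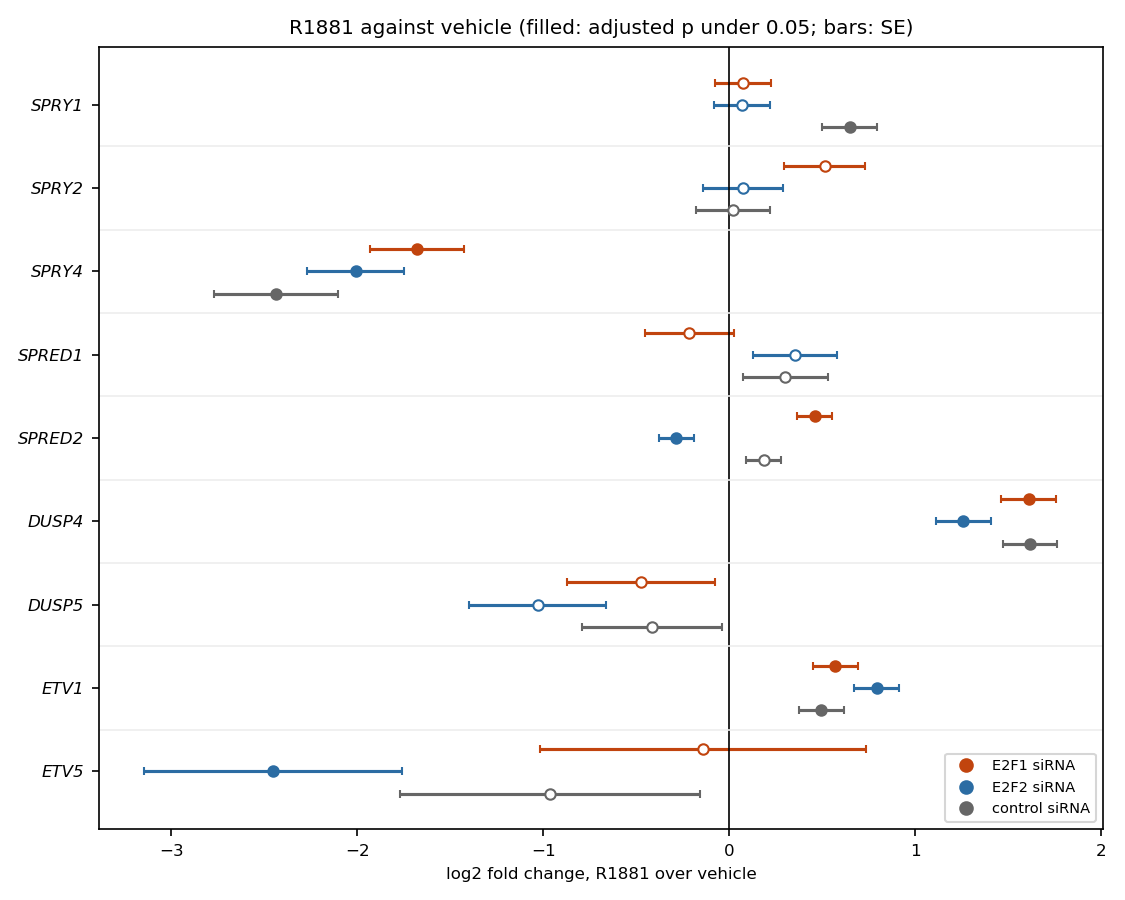
Log2 fold change of R1881 against vehicle (x axis, bars are SE from the fit) for each tested ERK feedback gene (rows) with E2F1, E2F2 and control siRNA. Filled points were called at an adjusted p under 0.05; SPRY4 lies far left and DUSP4 and ETV1 lie right of 0 with every pool.

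SPRY4 was the 1 gene of the set that rose with both E2F pools under both treatments. E2F1 siRNA against control siRNA called 2 of 9 genes under R1881 (1 higher, 1 lower), where 9.34% of all genes were called, 4.42% higher and 4.92% lower. Under vehicle it called 1 of 9, which was higher, against 5.28% of all genes, 2.36% higher and 2.92% lower. E2F2 siRNA against the same control libraries called 3 of 9 under R1881 (2 higher, 1 lower) against 30.3% of all genes, 15.9% higher and 14.4% lower. Under vehicle it called 3 of 9 (2 higher, 1 lower) against 27.3% of all genes, 14.2% higher and 13.1% lower. The median log2 fold change of the 9 genes was 0.42 with E2F2 siRNA under vehicle, beside 0.02 over all genes, and -0.05 under R1881, beside 0.03. With the E2F2 pool the share called among these genes was close to that of all genes. With the replicate number as a block, E2F1 siRNA called 4 of 9 under R1881 and E2F2 siRNA called 6 of 9 under vehicle, where that fit called 19.9% and 45.3% of all tested genes. The libraries with E2F2 siRNA and vehicle were also those with the highest summed level of markers of other cell types (78.7 to 90.7 CPM), whose part in these counts was not tested. The E2F1 and E2F2 comparisons share their control libraries. E2F1 siRNA set directly against E2F2 siRNA called 3 of 9 genes under R1881 (2 higher, 1 lower) against 24% of all genes, 11% higher and 13.1% lower, and 4 of 9 under vehicle (1 higher, 3 lower) against 30.6%, 14.4% higher and 16.1% lower.

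**Figure D3:**
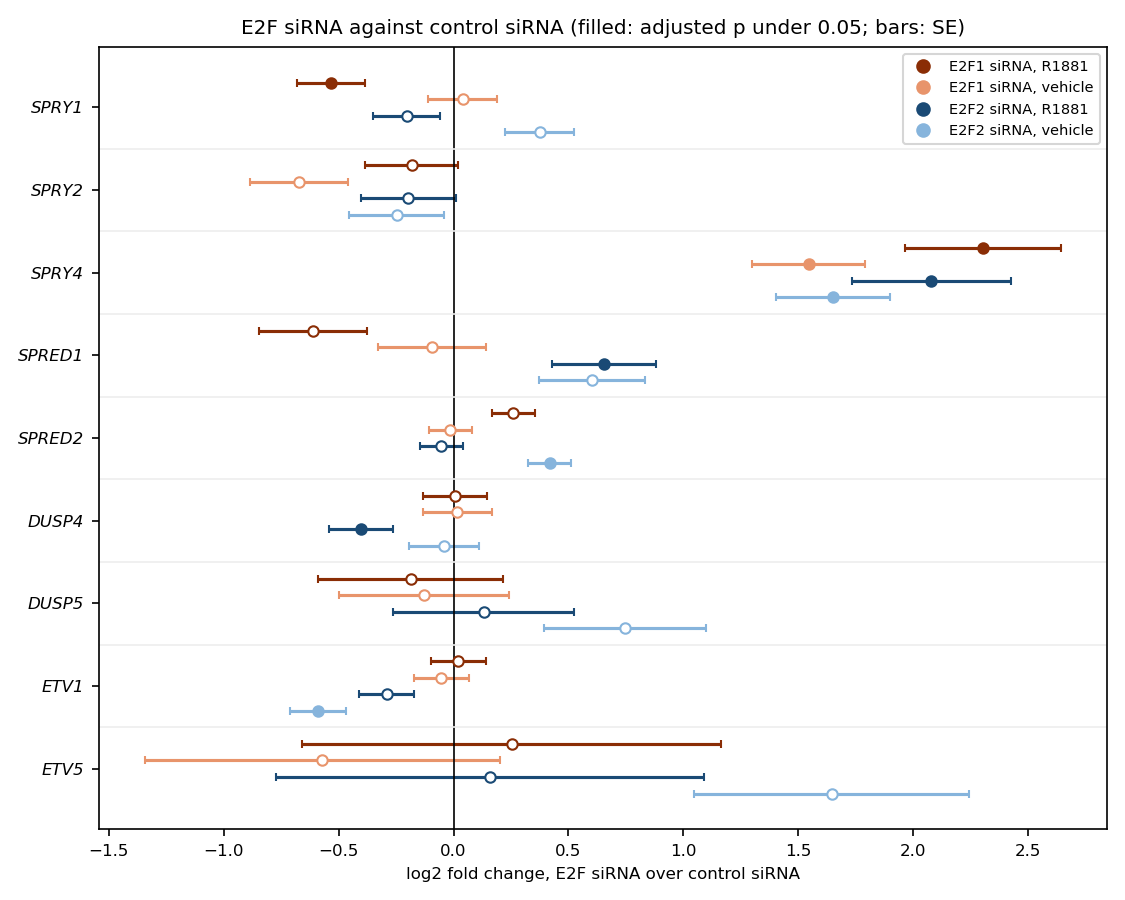
Log2 fold change of E2F1 siRNA and of E2F2 siRNA against control siRNA (x axis, bars are SE from the fit) for each tested ERK feedback gene (rows) under R1881 and under vehicle. Filled points were called at an adjusted p under 0.05; SPRY4 lies at 1.55 or above in all 4 comparisons, and both pools use the same control libraries.

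SPRY4, an inhibitor of signalling from growth factor receptors to RAS and RAF, was lowered by R1881 and raised by both E2F pools. SPRY4 (ENSG00000187678.8) lies on the minus strand at chr5:142310427-142326455 (GRCh38, GENCODE 29). Under R1881 it had 3.78, 3.07 and 3.06 CPM with E2F1 siRNA, 2.87, 2.59 and 3.00 CPM with E2F2 siRNA and 1.14, 0.428 and 0.346 CPM with control siRNA. Under vehicle it had 12.5, 9.64 and 9.54 CPM with E2F1 siRNA, 10.7, 12.1 and 11.4 CPM with E2F2 siRNA and 2.53, 3.25 and 5.00 CPM with control siRNA. Every R1881 library was below every vehicle library of its own pool, and every E2F siRNA library was above every control siRNA library of its own treatment. The 3 libraries with control siRNA and R1881 held only 17, 6 and 4 SPRY4 counts.

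R1881 lowered SPRY4 to 3.30 ± 0.410 CPM with E2F1 siRNA, against 10.6 ± 1.70 CPM with vehicle (SD, n = 3 each), a log2 fold change of -1.68 ± 0.25 (SE, edgeR adjusted p 0.000124). With E2F2 siRNA the levels were 2.82 ± 0.207 CPM with R1881 and 11.4 ± 0.676 CPM with vehicle (log2 fold change -2.01 ± 0.26, adjusted p 2.46e-05). With control siRNA they were 0.637 ± 0.434 CPM with R1881 and 3.60 ± 1.27 CPM with vehicle (log2 fold change -2.44 ± 0.33, adjusted p 4.57e-05). The fall was thus 3.20-fold, 4.03-fold and 5.42-fold with the E2F1, E2F2 and control pools. The differences between these falls were 0.76 ± 0.43 on the log2 scale for the E2F1 pool minus control (adjusted p 0.619) and 0.43 ± 0.43 for the E2F2 pool minus control (adjusted p 0.870), and neither passed the test.

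The rise of SPRY4 with E2F2 siRNA was 4.23-fold under R1881 (log2 fold change 2.08 ± 0.35, edgeR adjusted p 0.000283) and 3.14-fold under vehicle (1.65 ± 0.25, adjusted p 0.000121). E2F1 siRNA raised it by 2.31 ± 0.34 on the log2 scale under R1881 (adjusted p 0.000408) and by 1.55 ± 0.25 under vehicle (adjusted p 0.00117). Between E2F1 siRNA and E2F2 siRNA the difference in log2 level was 0.23 ± 0.28 under R1881 (adjusted p 0.623) and -0.11 ± 0.23 under vehicle (adjusted p 0.769). Replicate 1 of control siRNA with R1881 had the highest SPRY4 level of its group, and without it the log2 fold change under R1881 was 3.05 for E2F1 siRNA, 2.82 for E2F2 siRNA and -3.18 for R1881 against vehicle with control siRNA. The call for E2F1 siRNA under vehicle was lost when only the 6 libraries compared were fitted (adjusted p 0.115).

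SPRY4 has 1 start site in the RefSeq promoter table (GRCh38.p14). The outer part of its promoter that lies outside annotated exons, from 250 to 171 bases before the start site at chr5:142324418-142324497 on the minus strand, is shown because SPRY4 changed in all 7 comparisons with control libraries or vehicle. It is rich in G and C (73.8%) and, as the whole 300-base promoter, holds none of the motifs searched, so no letters are in capitals:

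SPRY4: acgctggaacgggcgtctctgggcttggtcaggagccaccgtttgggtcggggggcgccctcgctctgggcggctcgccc

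SPRY1, the sprouty gene with the highest level per kb, rose with R1881 where the control pool was used. SPRY1 (ENSG00000164056.10) lies on the plus strand at chr4:123396795-123403760. With R1881, SPRY1 had 8.62, 8.32 and 9.02 CPM with E2F1 siRNA, 11.2, 10.1 and 11.2 CPM with E2F2 siRNA and 14.5, 12.5 and 10.5 CPM with control siRNA. With vehicle, SPRY1 had 10.0, 7.96 and 6.62 CPM with E2F1 siRNA, 9.71, 11.1 and 10.3 CPM with E2F2 siRNA and 8.36, 7.26 and 8.34 CPM with control siRNA. With control siRNA every R1881 library was above every vehicle library, while with either E2F pool the treatments overlapped. The log2 fold change of R1881 against vehicle was 0.07 ± 0.15 with E2F1 siRNA (edgeR adjusted p 0.825), 0.07 ± 0.15 with E2F2 siRNA (adjusted p 0.810) and 0.65 ± 0.15 with control siRNA (adjusted p 0.00373). The last of these had an adjusted p of 0.0623 when only the 6 libraries compared were fitted.

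The difference in the SPRY1 response itself was -0.57 ± 0.21 for the E2F1 pool minus control (adjusted p 0.300) and -0.58 ± 0.21 for the E2F2 pool minus control (adjusted p 0.286), so neither passed the test. With replicates 1 and 2 alone both passed, at -0.89 (adjusted p 0.00503) for the E2F1 pool and -0.75 (adjusted p 0.0172) for the E2F2 pool. That fit also called a far larger share of all tested genes for both differences than the fit of all 18 libraries. Under R1881, SPRY1 fell with E2F1 siRNA, with a log2 fold change of -0.53 ± 0.15 (edgeR adjusted p 0.0327). That call was lost in 5 of 6 fits that left out 1 library and held only without replicate 3 of control siRNA with R1881, the lowest of its group. Under vehicle, SPRY1 was 10.4 ± 0.719 CPM with E2F2 siRNA and 7.99 ± 0.629 CPM with control siRNA (SD, n = 3 each), a log2 fold change of 0.38 ± 0.15 that was not called (adjusted p 0.0761) but passed with the replicate number as a block (adjusted p 0.0375) and with replicates 1 and 2 alone (adjusted p 0.0316). Under R1881, E2F2 siRNA against control siRNA gave -0.20 ± 0.15 (adjusted p 0.327), and -0.34 with replicates 1 and 2 alone (adjusted p 0.0454). The log2 difference between E2F1 siRNA and E2F2 siRNA was -0.33 ± 0.15 under R1881 (adjusted p 0.130) and -0.34 ± 0.15 under vehicle (adjusted p 0.107), and that between E2F1 siRNA and control siRNA under vehicle was 0.04 ± 0.15.

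SPRY2, an adaptor-binding sprouty that also acts on receptor turnover, was not called in any comparison over all 18 libraries by edgeR. SPRY2 (ENSG00000136158.11) lies on the minus strand at chr13:80335976-80340951. Under vehicle it had 1.17, 1.15 and 1.46 CPM with E2F1 siRNA, 1.39, 2.26 and 1.46 CPM with E2F2 siRNA and 1.84, 2.08 and 2.14 CPM with control siRNA. All 3 E2F1 siRNA libraries were below all 3 control siRNA libraries there, and the log2 fold change was -0.67 ± 0.21 (edgeR adjusted p 0.104). Under R1881 its libraries spanned 1.45 to 2.16 CPM over the 3 pools, and groups overlapped. The log2 fold change there was -0.18 ± 0.20 for E2F1 siRNA and -0.20 ± 0.21 for E2F2 siRNA against control siRNA, and under vehicle it was -0.25 ± 0.21 for E2F2 siRNA. R1881 against vehicle gave 0.51 ± 0.22 with E2F1 siRNA (adjusted p 0.186), 0.07 ± 0.22 with E2F2 siRNA and 0.02 ± 0.20 with control siRNA. The spread of SPRY2 between replicates was no larger than counting error, so its SE may be too small.

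SPRED1, which brings the RAS-inactivating protein neurofibromin to the membrane, was higher with E2F2 siRNA than with the other pools. SPRED1 (ENSG00000166068.12) lies on the plus strand at chr15:38252326-38357249. In R1881 libraries, SPRED1 had 7.06, 7.30 and 4.94 CPM with E2F1 siRNA, 16.6, 15.1 and 14.8 CPM with E2F2 siRNA and 10.6, 10.7 and 8.13 CPM with control siRNA. In vehicle libraries, SPRED1 had 7.84, 7.96 and 6.69 CPM with E2F1 siRNA, 12.8, 12.5 and 11.2 CPM with E2F2 siRNA and 9.75, 9.82 and 4.47 CPM with control siRNA. Under R1881 the 3 pools did not overlap, with E2F1 siRNA the lowest and E2F2 siRNA the highest. Under vehicle the E2F2 siRNA libraries were again above all others, and replicate 3 of control siRNA was the lowest of all.

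For SPRED1, E2F1 siRNA against E2F2 siRNA gave a log2 fold change of -1.26 ± 0.23 under R1881 (edgeR adjusted p 0.000888), which was called in all 6 fits that left out 1 library. Under vehicle it was -0.69 ± 0.23 (adjusted p 0.0330), called in 1 of 6 such fits. E2F2 siRNA against control siRNA gave 0.65 ± 0.23 under R1881 (adjusted p 0.0375), which was called in none of 6 such fits. Under vehicle it gave 0.60 ± 0.23 (adjusted p 0.0640), 0.63 ± 0.16 with the replicate block (adjusted p 0.00457) and 0.36 with replicates 1 and 2 alone (adjusted p 0.0241); DESeq2 called it (adjusted p 0.0434). E2F1 siRNA against control siRNA gave -0.61 ± 0.23 under R1881 (adjusted p 0.131), which passed with the replicate block (adjusted p 0.0160) and with replicates 1 and 2 alone (adjusted p 0.00192). With vehicle the same pair gave -0.09 ± 0.23. R1881 against vehicle was not called for SPRED1 in any pool by the test over all 18 libraries, with log2 fold changes of -0.22 ± 0.24 with E2F1 siRNA, 0.35 ± 0.22 with E2F2 siRNA (adjusted p 0.304) and 0.30 ± 0.23 with control siRNA. The value with E2F2 siRNA passed with replicates 1 and 2 alone (0.33, adjusted p 0.0289) and when only the 6 libraries compared were fitted (0.36, adjusted p 0.0473).

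SPRED2, a related inhibitor of RAF activation, was the gene of the set whose response to androgen differed between siRNA pools. SPRED2 (ENSG00000198369.9) lies on the minus strand at chr2:65310851-65432637. With R1881, SPRED2 had 33.3, 28.0 and 34.2 CPM with E2F1 siRNA, 27.2, 24.4 and 25.1 CPM with E2F2 siRNA and 26.0, 25.8 and 27.9 CPM with control siRNA. With vehicle, SPRED2 had 24.2, 22.9 and 22.4 CPM with E2F1 siRNA, 31.0, 31.4 and 31.3 CPM with E2F2 siRNA and 22.1, 25.2 and 22.8 CPM with control siRNA. Every R1881 library was above every vehicle library with E2F1 siRNA and with control siRNA, and every R1881 library was below every vehicle library with E2F2 siRNA.

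R1881 raised SPRED2 with E2F1 siRNA by 0.46 ± 0.09 on the log2 scale (edgeR adjusted p 0.00201). With E2F2 siRNA it lowered SPRED2, with a log2 fold change of -0.29 ± 0.09 (adjusted p 0.0371) that was called in 1 of 6 fits leaving out 1 library and not without the filter on low counts (adjusted p 0.254). With control siRNA the value was 0.18 ± 0.09 (adjusted p 0.168). The response with E2F1 siRNA exceeded that with E2F2 siRNA by 0.75 ± 0.13 (edgeR adjusted p 0.00782), a comparison added after the data had been seen, in which 1.65% of all tested genes were called, 0.863% higher and 0.784% lower, and SPRED2 was the 1 of the 9 genes called. It was called in all 12 fits that left out 1 library and not without the filter (adjusted p 0.0966). For the E2F1 pool minus control it was 0.27 ± 0.13 (adjusted p 0.518), and for the E2F2 pool minus control -0.47 ± 0.13 (adjusted p 0.136).

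Under vehicle, SPRED2 averaged 31.2 ± 0.225 CPM with E2F2 siRNA and 23.4 ± 1.61 CPM with control siRNA (SD, n = 3 each), a log2 fold change of 0.42 ± 0.09 (edgeR adjusted p 0.00358). That call was kept in all 6 fits that left out 1 library, and it was lost without the filter on low counts (adjusted p 0.0746) and when only the 6 libraries compared were fitted (adjusted p 0.0899). E2F1 siRNA against E2F2 siRNA gave 0.31 ± 0.09 under R1881 (adjusted p 0.0229) and -0.43 ± 0.09 under vehicle (adjusted p 0.00247), and without the filter neither passed (adjusted p 0.0919 and 0.0578). E2F1 siRNA against control siRNA gave 0.26 ± 0.09 under R1881 (adjusted p 0.102), which passed with the replicate block (adjusted p 0.0472), and -0.01 ± 0.09 under vehicle.

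RefSeq promoters, running from 250 bases before to 50 bases after a start site on GRCh38.p14, were found for 7 of the 10 genes, 16 promoters in all. DUSP4, DUSP5 and ETV5 were not matched. Both strands were searched for the E2F motifs TTTCCCGC and TTTGGCGC, the ETS motif CCGGAAGT, the cyclic AMP element TGACGTCA and the AP-1 motif TGANTCA, where N is any base. Over all 35116 RefSeq promoters of this length, 1.63%, 0.652%, 4.14%, 1.85% and 7.71% held them in that order. Of the 16 promoters, 1 held any of them: that of an internal start site of SPRED2 held the AP-1 motif, so no matches overlapped. It is shown from 100 bases before to 4 bases after the start site, at chr2:65366775-65366878 on the minus strand, with the motif in capitals, because SPRED2 was the 1 gene of the set whose R1881 response differed between pools:

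SPRED2: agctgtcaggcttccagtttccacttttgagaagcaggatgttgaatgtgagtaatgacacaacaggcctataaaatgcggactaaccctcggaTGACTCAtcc

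The motif match is a description of these letters, and the counts do not tell which start site was used.

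DUSP4, a nuclear phosphatase of ERK and of related kinases, had the largest rise with R1881 in the set. DUSP4 (ENSG00000120875.8) lies on the minus strand at chr8:29333064-29350668. In R1881 libraries, DUSP4 had 24.6, 23.4 and 23.6 CPM with E2F1 siRNA, 19.3, 16.1 and 18.6 CPM with E2F2 siRNA and 20.2, 26.4 and 24.7 CPM with control siRNA. In vehicle libraries, DUSP4 had 8.06, 6.28 and 9.08 CPM with E2F1 siRNA, 7.40, 6.60 and 8.53 CPM with E2F2 siRNA and 7.67, 7.06 and 8.47 CPM with control siRNA. No R1881 library overlapped with any vehicle library, and under vehicle the 3 pools overlapped.

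The rise of DUSP4 was 3.05-fold with E2F1 siRNA (log2 fold change 1.61 ± 0.15, edgeR adjusted p 6.2e-07). With E2F2 siRNA it was 2.39-fold (1.26 ± 0.15, adjusted p 1.08e-05), and with control siRNA 3.07-fold (1.62 ± 0.15, adjusted p 6e-07). Under R1881, E2F2 siRNA against control siRNA gave -0.40 ± 0.14 (adjusted p 0.0402), a call held in 1 of 6 fits that left out 1 library, the one without replicate 1 of control siRNA with R1881. E2F1 siRNA against E2F2 siRNA under R1881 gave 0.41 ± 0.14 (adjusted p 0.0452), which was called in none of 6 such fits. The difference in R1881 response was -0.01 ± 0.20 for the E2F1 pool minus control (adjusted p 1.00) and -0.36 ± 0.21 for the E2F2 pool minus control (adjusted p 0.626). E2F1 siRNA against control siRNA gave 0.01 ± 0.14 under R1881 and 0.02 ± 0.15 under vehicle.

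DUSP5, a nuclear phosphatase that acts on ERK, was not called by edgeR over all 18 libraries in any comparison without the replicate block. DESeq2 called it in 1 comparison. With the block, edgeR called it for R1881 with E2F2 siRNA and for E2F1 against E2F2 siRNA under vehicle. DUSP5 (ENSG00000138166.5) lies on the plus strand at chr10:110497838-110511544. With R1881, DUSP5 had 0.657, 1.39 and 2.55 CPM with E2F1 siRNA, 2.62, 1.67 and 1.41 CPM with E2F2 siRNA and 1.54, 1.79 and 1.90 CPM with control siRNA. With vehicle, DUSP5 had 1.32, 2.30 and 2.77 CPM with E2F1 siRNA, 3.88, 4.72 and 3.10 CPM with E2F2 siRNA and 1.84, 2.01 and 3.07 CPM with control siRNA. With E2F2 siRNA every R1881 library was below every vehicle library, and under vehicle every E2F2 siRNA library was above every library of the other pools.

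R1881 against vehicle gave DUSP5 a log2 fold change of -0.47 ± 0.40 with E2F1 siRNA (edgeR adjusted p 0.502), -1.03 ± 0.37 with E2F2 siRNA (adjusted p 0.0560) and -0.42 ± 0.38 with control siRNA (adjusted p 0.467). The value with E2F2 siRNA passed with DESeq2 (adjusted p 0.0387), with only the 6 libraries compared (adjusted p 0.0204), with the replicate block (-1.02 ± 0.34, adjusted p 0.0273) and with replicates 1 and 2 alone (adjusted p 0.00857). Under vehicle, E2F2 siRNA against control siRNA gave 0.75 ± 0.35 (adjusted p 0.131), and 1.15 ± 0.30 with replicates 1 and 2 alone (adjusted p 0.00251). E2F1 siRNA against E2F2 siRNA under vehicle gave -0.87 ± 0.36 (adjusted p 0.0798), -0.89 ± 0.33 with the replicate block (adjusted p 0.0375) and -1.27 with replicates 1 and 2 alone (adjusted p 0.00124). Under R1881 it gave -0.32 ± 0.41 (adjusted p 0.634), and -1.04 with replicates 1 and 2 alone (adjusted p 0.0307). Relative to control siRNA, E2F1 siRNA gave -0.19 ± 0.40 under R1881 and -0.13 ± 0.37 under vehicle, and E2F2 siRNA against control siRNA gave 0.13 ± 0.39 under R1881.

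DUSP6, the cytoplasmic phosphatase specific to ERK and a widely used readout of its activity, had 0 to 9 counts a library and was not tested. DUSP6 (ENSG00000139318.7) lies on the minus strand at chr12:89347232-89353271, where its exons overlap those of an antisense gene with 17 counts in all libraries, and whether the counting used strand is not given in the sources used here. It had 1, 0 and 0 counts with E2F1 siRNA, 4, 5 and 4 with E2F2 siRNA and 3, 2 and 2 with control siRNA under R1881. In vehicle libraries, DUSP6 had 7, 6 and 6 counts with E2F1 siRNA, 8, 9 and 5 with E2F2 siRNA and 3, 8 and 9 with control siRNA. After scaling, every R1881 library was below every vehicle library of its pool, by the least with E2F2 siRNA, where the highest R1881 library had 0.418 CPM and the lowest vehicle library 0.431 CPM.

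Summed over replicates, DUSP6 had 1 count with R1881 and 19 with vehicle with E2F1 siRNA, a ratio of 0.0531 with a 95% counting interval of 0.00128 to 0.334. With E2F2 siRNA it had 13 counts with R1881 and 22 with vehicle (ratio 0.545, interval 0.252 to 1.13). With control siRNA it had 7 counts with R1881 and 20 with vehicle (ratio 0.367, interval 0.131 to 0.903). These exact intervals, of counts scaled by library size, cover counting error only. In the fit without a filter on low counts, R1881 against vehicle was called with E2F1 siRNA (log2 fold change -3.81 ± 0.85, edgeR adjusted p 0.00261) and not with E2F2 siRNA (adjusted p 0.444) or control siRNA (adjusted p 0.169).

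Between pools the DUSP6 counts were too few for most differences to be detectable. For E2F1 siRNA against control siRNA there were 1 and 7 counts under R1881 (ratio 0.154, interval 0.00341 to 1.2) and 19 and 20 counts under vehicle (ratio 1.06, interval 0.537 to 2.10). With E2F2 siRNA against control siRNA there were 13 and 7 counts under R1881 (ratio 2.10, interval 0.780 to 6.22) and 22 and 20 under vehicle (ratio 1.41, interval 0.737 to 2.73). Each of these intervals holds 1. In the fit without a filter, E2F1 siRNA against E2F2 siRNA was called under R1881 (log2 fold change -3.31 ± 0.90, edgeR adjusted p 0.0152) and not under vehicle (-0.36 ± 0.50, adjusted p 0.743).

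ETV1, the gene of the set with the most counts, rose with R1881 in every pool and fell with E2F2 siRNA under vehicle. ETV1 (ENSG00000006468.13) lies on the minus strand at chr7:13891228-13991425. With R1881, ETV1 had 160, 141 and 131 CPM with E2F1 siRNA, 126, 119 and 102 CPM with E2F2 siRNA and 145, 149 and 131 CPM with control siRNA. With vehicle, ETV1 had 98.9, 104 and 87.4 CPM with E2F1 siRNA, 69.2, 74.3 and 56.9 CPM with E2F2 siRNA and 104, 109 and 89.4 CPM with control siRNA. Every R1881 library was above every vehicle library of its pool, and the E2F2 siRNA libraries were below all others of the same treatment.

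R1881 gave ETV1 a log2 fold change of 0.57 ± 0.12 with E2F1 siRNA (edgeR adjusted p 0.00250), 0.79 ± 0.12 with E2F2 siRNA (adjusted p 0.000133) and 0.49 ± 0.12 with control siRNA (adjusted p 0.00560). E2F2 siRNA lowered it under vehicle, to 66.8 ± 8.90 CPM against 101 ± 9.95 CPM with control siRNA (SD, n = 3 each), a log2 fold change of -0.59 ± 0.12 (adjusted p 0.00181). Under R1881 the same comparison gave -0.29 ± 0.12 (adjusted p 0.0788), which passed with replicates 1 and 2 alone (adjusted p 0.000977) and with only the 6 libraries compared (adjusted p 0.0271). Set against E2F2 siRNA, E2F1 siRNA gave 0.31 ± 0.12 under R1881 (adjusted p 0.0715; 0.000394 with replicates 1 and 2 alone) and 0.54 ± 0.12 under vehicle (adjusted p 0.00310). E2F1 siRNA against control siRNA gave 0.02 ± 0.12 under R1881 and -0.05 ± 0.12 under vehicle.

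ETV5, the other PEA3 factor of the set, was detected at 0 to 19 counts a library. ETV5 (ENSG00000244405.7) lies on the minus strand at chr3:186046308-186110318 and shares exonic positions with DGKG, which had 15 counts in all libraries, on the same strand, so its few counts are uncertain. It had 5, 3 and 1 counts with E2F1 siRNA, 0, 6 and 2 with E2F2 siRNA and 2, 1 and 5 with control siRNA under R1881. Under vehicle it had 2, 5 and 3 counts with E2F1 siRNA, 14, 9 and 19 with E2F2 siRNA and 3, 3 and 11 with control siRNA. The E2F2 siRNA libraries with vehicle were above all others after scaling, at 0.849 to 1.64 CPM, and all other groups overlapped.

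With E2F2 siRNA, R1881 lowered ETV5 (log2 fold change -2.45 ± 0.69, edgeR adjusted p 0.0164). The call held in 3 of 6 fits that left out 1 library. Among the E2F2 siRNA libraries it was lost on leaving out R1881 replicate 1 (adjusted p 0.0677), R1881 replicate 3 (0.0591) or vehicle replicate 3 (0.0661). When R1881 replicate 2 was left out the log2 fold change was -3.77. E2F1 siRNA against E2F2 siRNA under vehicle gave -2.22 ± 0.66 (adjusted p 0.0185), also called in 3 of 6 such fits and lost without replicate 1 (adjusted p 0.0792) or replicate 3 (0.0564) of the E2F1 pool or replicate 3 of the E2F2 pool (0.0694). E2F2 siRNA against control siRNA under vehicle gave 1.65 ± 0.60 (adjusted p 0.0525), 1.67 ± 0.57 with the replicate block (adjusted p 0.0252) and 2.25 with replicates 1 and 2 alone (adjusted p 0.0105). Without replicate 3 of control siRNA with vehicle it was 2.48 (adjusted p 0.0159). The log2 fold change of R1881 against vehicle was -0.14 ± 0.88 with E2F1 siRNA and -0.97 ± 0.81 with control siRNA, and neither passed. For E2F1 siRNA against control siRNA it was 0.25 ± 0.91 under R1881 and -0.57 ± 0.77 under vehicle, and for E2F2 siRNA against control siRNA 0.16 ± 0.93 under R1881.

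Differences in the androgen response between an E2F pool and control were not called for any of the 9 tested genes without the replicate block. This holds for the test over all 18 libraries. For the E2F1 pool minus control, 0.685% of all genes were called, 1 of the 9 had an unadjusted p under 0.05, and DESeq2 called 0. For the E2F2 pool minus control, 0.889% of all genes were called, 2 of the 9 had an unadjusted p under 0.05, and DESeq2 called 0. The 2 genes with such a p for the E2F2 pool were SPRY1 and SPRED2, and that for the E2F1 pool was SPRY1. With replicates 1 and 2 alone SPRY1 was called for both pools, and ETV1 for the E2F2 pool (0.31, edgeR adjusted p 0.0268, against 0.30 ± 0.17 and 0.617 over all libraries). In those fits 12.1% of all genes were called for the E2F1 pool and 11.6% for the E2F2 pool. With the replicate block SPRED2 was called for the E2F2 pool (-0.47, adjusted p 0.0457), where 4.33% of all genes were called. The other differences for the E2F1 pool minus control were -0.52 ± 0.33 for SPRED1, 0.49 ± 0.30 for SPRY2, -0.06 ± 0.55 for DUSP5, 0.07 ± 0.17 for ETV1 and 0.82 ± 1.2 for ETV5. Those for the E2F2 pool minus control were 0.05 ± 0.32 for SPRED1, 0.05 ± 0.29 for SPRY2, -0.61 ± 0.53 for DUSP5 and -1.49 ± 1.15 for ETV5.

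The rest of the pathway was described by 6 lists of genes. The counts with E2F1 siRNA stand beside 9.34% of all tested genes called under R1881 and 5.28% under vehicle. Under R1881, 3 of 18 other feedback regulators rose and 0 fell: DUSP10, a phosphatase of p38 and JNK, by 0.99 ± 0.14 on the log2 scale, ERRFI1, an inhibitor of the EGF receptor, by 0.42 ± 0.11 and DUSP1 by 0.48 ± 0.15. Of 18 other ERK-induced transcripts 1 rose, EMP1 by 1.46 ± 0.25, and 2 fell, PHLDA1 with a log2 fold change of -0.98 ± 0.23 and CCND1, which encodes cyclin D1, with -0.21 ± 0.06. Of 10 receptor ligands 1 rose, HBEGF by 0.94 ± 0.24, and of 16 other ETS factors and parts of the CIC repressor 1 rose, ATXN1 by 0.89 ± 0.10. None of 12 receptor tyrosine kinases was called by edgeR or DESeq2 (1 had an unadjusted p under 0.05), nor any of 21 genes from GRB2 to ERK (5 had such a p). Under vehicle, DUSP10 rose by 0.67 ± 0.14. CCND1 with -0.23 ± 0.06, the ligand gene IGF2 with -1.28 ± 0.30, the receptor genes IGF1R with -0.97 ± 0.07 and RET with -1.23 ± 0.29, and ATXN1 with -0.46 ± 0.10 fell. These were the 6 list genes called there, and 0 of the 21 cascade genes were called by either tool (2 at an unadjusted p under 0.05).

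With E2F2 siRNA more of the pathway genes were called, beside 30.3% of all tested genes under R1881 and 27.3% under vehicle. Under R1881, 9 of 18 other ERK-induced transcripts rose and 2 fell. The stress-induced factor ATF3 rose to 60.3 ± 5.06 CPM with E2F2 siRNA, against 26.9 ± 1.02 CPM with control siRNA, a log2 fold change of 1.17 ± 0.09, and KLF6 rose by 0.97 ± 0.13 and MAFF by 1.71 ± 0.27, while MYC fell with -1.26 ± 0.20. Of 18 other feedback regulators 5 rose and 1 fell, among them DUSP10 with 1.27 ± 0.14, ERRFI1 with 0.85 ± 0.11, the ubiquitin ligase gene CBLB with 0.69 ± 0.12 and DUSP7 with -0.82 ± 0.14. Of 10 ligands 5 rose and 1 fell, and TGFA rose by 1.27 ± 0.13, IGF2 by 1.70 ± 0.29, HBEGF by 1.27 ± 0.23 and VEGFA by 0.52 ± 0.11. Of 21 cascade genes 4 rose and 0 fell: the adaptor genes GAB1 by 1.22 ± 0.15, SHC1 by 0.59 ± 0.09 and GAB2 by 0.73 ± 0.24, and BRAF by 0.54 ± 0.16. The receptor genes EGFR (0.46 ± 0.08) and INSR (0.25 ± 0.08) were the 2 of 12 that rose. Of the ETS list 5 of 16 rose and 0 fell, with ELF3 at 1.42 ± 0.13, ATXN1 at 1.05 ± 0.10, ELF1 at 0.58 ± 0.10 and ETV3 at 0.36 ± 0.08.

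Under vehicle the E2F2 pool gave 8 of 18 ERK-induced transcripts higher and 1 lower. FOS, an immediate early gene, averaged 3.77 ± 0.471 CPM with E2F2 siRNA and 0.587 ± 0.0443 CPM with control siRNA (SD, n = 3 each), a log2 fold change of 2.66 ± 0.24, and EMP1 rose by 2.68 ± 0.33, ATF3 by 1.35 ± 0.09 and KLF6 by 0.89 ± 0.13. Of the other feedback regulators 5 of 18 rose and 1 fell: CBLB rose by 0.99 ± 0.11, DUSP10 by 1.06 ± 0.14 and DUSP1 by 0.60 ± 0.14, and DUSP7 fell with -0.91 ± 0.14. Of 10 ligands 3 rose and 0 fell, HBEGF by 1.53 ± 0.21, TGFA by 0.56 ± 0.12 and VEGFA by 0.45 ± 0.12. Of 21 cascade genes 6 rose and 1 fell, with SHC1 at 0.65 ± 0.09, GAB1 at 0.98 ± 0.14, GAB2 at 1.13 ± 0.23 and GRB2 at 0.34 ± 0.07. Of 12 receptors 2 rose, RET by 0.72 ± 0.24 and EGFR by 0.23 ± 0.08, and 2 fell, IGF1R with -0.72 ± 0.07 and ERBB3 with -0.28 ± 0.08. Of the ETS list 5 of 16 rose and 0 fell, led by ATXN1 at 0.87 ± 0.10, ELF3 at 1.00 ± 0.13, ELF1 at 0.50 ± 0.10 and ETV3 at 0.32 ± 0.08. The median log2 fold change with E2F2 siRNA was 0.38 under R1881 and 0.19 under vehicle for the ERK-induced list. In that order of treatments it was 0.30 and 0.21 for the other feedback regulators and 0.52 and 0.30 for the ligands. For the cascade it was 0.22 and 0.28. It was 0.07 and 0.01 for the receptors and 0.05 and 0.04 for the ETS list, beside 0.03 and 0.02 over all genes.

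**Figure D4:**
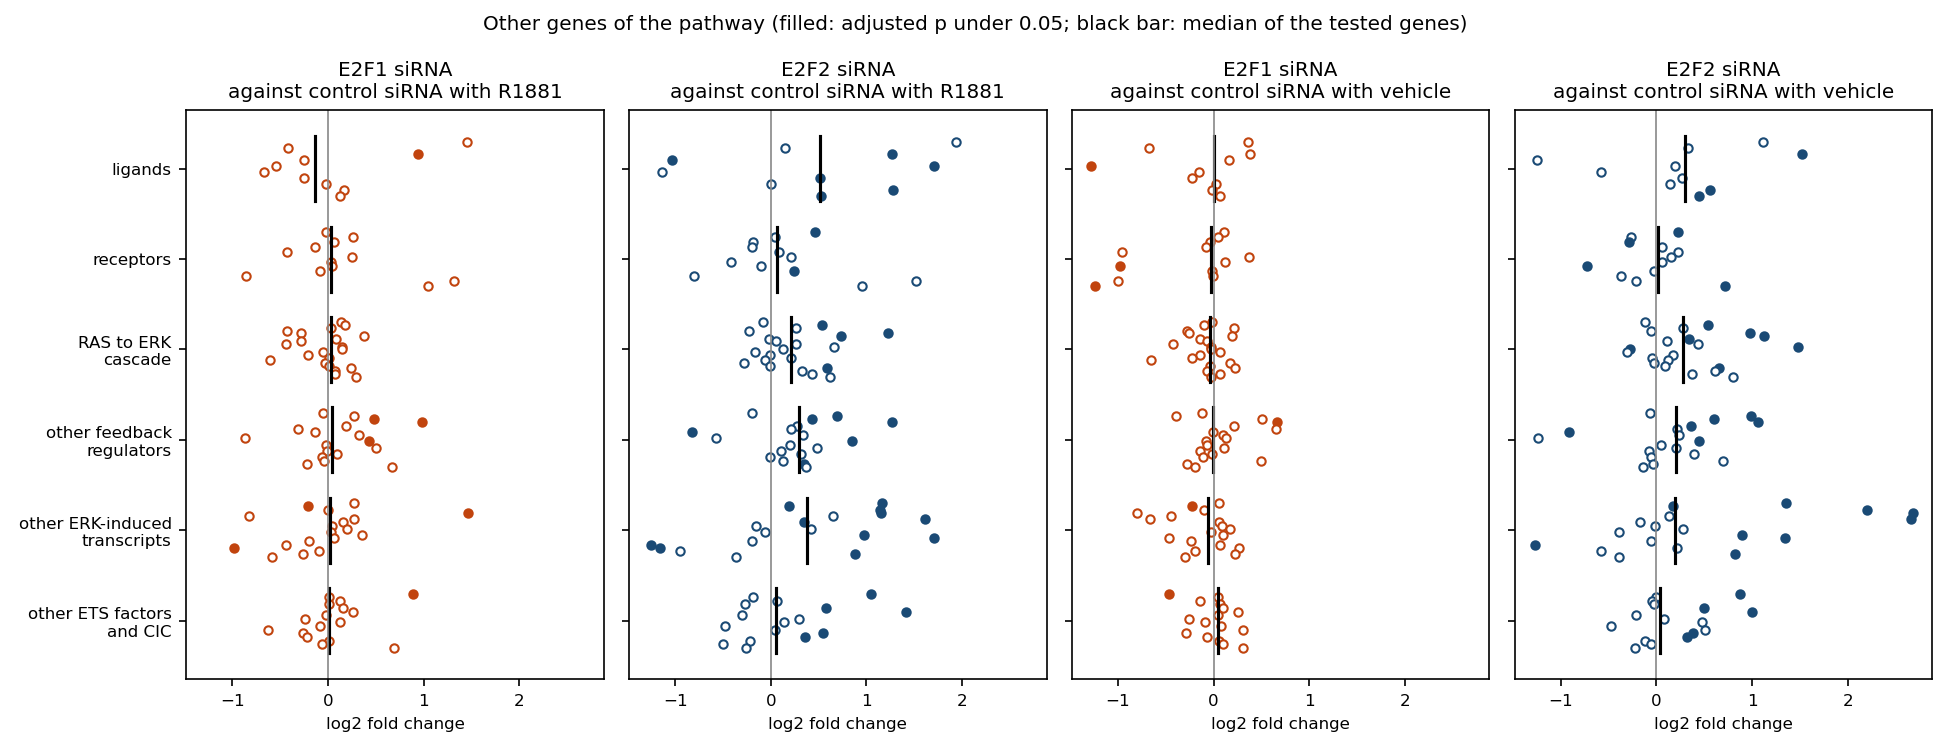
Log2 fold change (x axis) of each tested gene of 6 pathway lists (y axis) for E2F1 and E2F2 siRNA against control siRNA under R1881 and under vehicle, 1 panel a comparison. Each point is 1 gene, filled where called, and the black bar is the list's median; under R1881 the ligands, for example, have a median of -0.13 with E2F1 siRNA and 0.52 with E2F2 siRNA, against the same control libraries.

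R1881 with control siRNA moved these lists in mixed directions, beside 27% of all tested genes called. Of the other feedback regulators 3 rose and 4 fell, among them ERRFI1 with 1.19 ± 0.11, the receptor inhibitor LRIG1 with 1.24 ± 0.18, the FGF receptor antagonist IL17RD with -0.74 ± 0.14 and CBLB with -0.61 ± 0.12. Of the ERK-induced transcripts 3 rose and 2 fell, with EMP1 at 1.94 ± 0.35, VGF at 1.56 ± 0.29, FOSL2 at -0.66 ± 0.10 and JUN at -0.60 ± 0.16. Of 10 ligands 2 rose and 4 fell, and TGFA fell to 3.85 ± 0.506 CPM with R1881, against 9.24 ± 0.802 CPM with vehicle, while IGF1 rose by 2.17 ± 0.40 and VEGFA by 0.47 ± 0.12 and IGF2 fell with -1.33 ± 0.30. IGF1R, the receptor of insulin-like growth factors, had 224 ± 12.2 CPM with R1881 and 50.4 ± 2.91 CPM with vehicle, a log2 fold change of 2.15 ± 0.07, and the 3 receptors that rose and 3 that fell also held EGFR with 0.97 ± 0.08, FGFR3 with 1.37 ± 0.21 and ERBB2 with -1.01 ± 0.18. Of the cascade 3 rose and 2 fell, with MAP2K1, which encodes MEK, at 0.52 ± 0.06, GAB1 at -1.13 ± 0.15 and GRB2 at -0.38 ± 0.07. Of the ETS list 3 rose and 5 fell, with EHF at 0.99 ± 0.11, SPDEF at 1.51 ± 0.23, ATXN1 at -0.96 ± 0.10 and ELF3 at -1.16 ± 0.13.

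Across the 18 libraries, the genes most like each ERK feedback gene were found by Pearson's r of log2 CPM, as a description: the libraries share their treatment and pool, so genes that respond to the same treatment correlate. The nearest to SPRY4 were GBP2 (r = 0.946), DTNA (0.943) and USP54 (0.940). DUSP4 was most like HES6 (0.982), GOT1 (0.974) and FADS1 (0.973), and ETV1 most like THRB (0.972), AADAT (0.957) and METTL7A (0.953). SPRED1 was most like GS1-358P8.4 (0.962), TTC21B (0.935) and USP31 (0.927). For SPRY1 they were WDR77 (0.816), PGAM1 (0.790) and SLC25A32 (0.788), and for SPRED2 AP2B1 (0.864), TOB1 (0.788) and SLC39A14 (0.759). For the genes with few counts the nearest were less alike: IRGQ (0.826), FUNDC2 (0.796) and PLEKHM1 (0.767) for DUSP5, PHLDB1 (0.798), LRCH3 (0.792) and CLASP1 (0.790) for ETV5, and DLST (0.749), RBSN (0.725) and MAOA (0.704) for SPRY2. Within the set, DUSP4 and ETV1 had r = 0.779, SPRY4 had -0.745 with DUSP4 and -0.729 with ETV1, and DUSP5 and ETV5 had -0.717 and -0.715 with ETV1, over the same 18 libraries.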

How the data were processed

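RNA of LNCaP cells was sequenced after exon capture (TruSeq RNA Exome). Per the labels, the deposited values are raw counts per gene, made by the authors. The submitters' processing notes name CASAVA 1.8.2, TopHat2 2.0.13, Picard 1.97, featureCounts of Subread 1.6.4 and GRCh38; the annotation release and the strand setting are not given in the sources used here. Counts were analysed as deposited. Genes were kept by edgeR's filter on group (minimum count 10, minimum total 15), scaled by TMM and fitted with edgeR 4.0.16 in R 4.3.3, with 6 group means over 18 libraries. The quasi-likelihood F test was adjusted by Benjamini-Hochberg over 15185 genes, and an adjusted p under 0.05 was a call. The SE is the log2 fold change divided by the square root of F. CPM values are TMM-scaled, given for replicates 1, 2 and 3 in that order or as mean ± SD. The common biological coefficient of variation was 0.167.

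Lengths and positions come from GENCODE 29, which held 57388 of 58037 identifiers. Same-numbered libraries deviated together (every r over 0.1) in 8 of 12 comparisons, as a property of the data, and a fit with the replicate number as a block is given beside results of those comparisons whose call it changes. For E2F1 siRNA against control siRNA under R1881 it called 3022 of all genes, and the fit without it 1418. Alternatives were RLE scaling, no filter, DESeq2 1.42.0, only the libraries compared, the block, replicates 1 and 2 only, each library left out and a 2-fold threshold. All 10 genes are named, and from each pathway list up to 4 called genes with the smallest p, and for each tested gene the 3 most alike by r among named genes at or above a mean log2 CPM of 3; 1 list gene is not reported here. The genes and lists were chosen with earlier results of these data known. The fit was tested on simulated counts of constant spread without a replicate effect, so that test does not cover the shift of replicate 3.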

Additional observations from a re-analysis of the deposited data

Results flagged for a closer look

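SPRED2 moved with R1881 in opposite directions in different pools, in every library. The response to R1881 with E2F1 siRNA minus that with E2F2 siRNA was 0.75 on the log2 scale, and the same number is the effect of E2F1 siRNA against E2F2 siRNA under R1881 minus that under vehicle, 0.75. The test of this difference gave an edgeR adjusted p of 0.00782. It was added after the data had been seen, so its p is no independent support for the pattern that was flagged. Without the filter on low counts it did not pass (edgeR adjusted p 0.0966). The fall with R1881 under E2F2 siRNA was called in 1 of 6 fits that left out 1 library. The response with E2F2 siRNA minus that with control siRNA was -0.47, and its test did not pass (adjusted p 0.136).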

How the results depend on the processing

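No value that any fit called changed direction; uncalled values near 0 did, such as the SPRY4 response with E2F2 minus control siRNA (0.43, and -0.19 with replicates 1 and 2 alone) and ETV5 for R1881 with E2F1 siRNA (-0.14, and 0.13). Of 1444 single-gene values recomputed, 1351 kept their side of the threshold, 56 lost the call and 37 gained it. Most of these values were uncalled in the main fit and could not lose a call, so the 1351 does not measure how stable the calls were. Of the losses, 42 came from leaving out 1 library. Counts of called genes among the 9 tested that moved by over 1.5 times were as follows, with some smaller changes also given. The cause of these changes was not tested. With a 2-fold threshold R1881 called 2 with E2F1 siRNA, 3 with E2F2 siRNA and 2 with control siRNA; every siRNA comparison that moved fell to 1, that is E2F1 siRNA against control siRNA under R1881, E2F2 siRNA against control siRNA under both treatments and E2F1 against E2F2 siRNA under both, and the response with E2F1 minus E2F2 siRNA fell to 0. Without the filter (29476 genes, DUSP6 included) the counts were 1 for either E2F pool against control siRNA under R1881, 2 for E2F1 against E2F2 siRNA under vehicle, 2 for the same under R1881 (SPRED1 and DUSP6, with SPRED2 and DUSP4 lost) and 0 for the response with E2F1 minus E2F2 siRNA. DESeq2 called 6 in place of 5 for R1881 with E2F2 siRNA and 4 in place of 3 for E2F2 against control siRNA under vehicle. With only the libraries compared, E2F1 siRNA against control siRNA under vehicle gave 0. With the replicate block, E2F1 siRNA against control siRNA under R1881 gave 4, E2F2 siRNA against control siRNA under vehicle 6 and the response with E2F2 minus control siRNA 1. The block changed no call among the 9 genes other than those given in the report, that of SPRED2 in the last response (adjusted p 0.0457) and those of ETV1 under R1881. For ETV1 they were E2F2 against control siRNA (0.00137) and E2F1 against E2F2 siRNA (0.00103). In these ETV1 comparisons the r of same-numbered libraries was positive but not always over 0.1. It was 0.0819 to 0.332 and 0.0911 to 0.320 in that order. With replicates 1 and 2 alone, E2F2 siRNA against control siRNA gave 5 under R1881 and 7 under vehicle, E2F1 against E2F2 siRNA under R1881 gave 5, and the responses with E2F1 and E2F2 siRNA minus control siRNA gave 1 and 2. Leaving out 1 library gave 3 to 5 for R1881 with E2F2 siRNA, 1 to 2 for either E2F pool against control siRNA under R1881 and for E2F1 against E2F2 siRNA under R1881, 2 to 3 for E2F1 against E2F2 siRNA under vehicle and 3 to 4 for E2F2 against control siRNA under vehicle. The number called over all genes changed with the setting too. R1881 with control siRNA called 4105 genes, 6392 with the block, 7205 with replicates 1 and 2 alone and 1842 with only its 6 libraries. The counts among the 9 genes given above therefore do not show a change particular to them. Depth limits DUSP6 and ETV5, at 0 to 9 and 0 to 19 counts a library.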
